A study of Mus musculus with 29 samples.

Results

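Tyrosine tRNA in the mouse is made from 10 genes of the 646 RNA polymerase III (Pol III) loci scored here, and all 10 carry an intron in their annotated name. They were taken as every locus whose name holds tRNATyr. All 10 have the anticodon GTA. They form 10 of the 433 tRNA genes and 10 of the 24 tRNA genes named with an intron.

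Pol III transcribes tRNA genes from a promoter that lies inside the gene. Its A box and B box are bound by TFIIIC, which places TFIIIB upstream of the start site, and TFIIIB recruits the polymerase. The transcript ends at a run of T in the coding strand. In tRNA-Tyr the precursor also carries a short intron next to the anticodon, which the tRNA splicing endonuclease removes before both exons are joined. RPC4 is a subunit of Pol III, and its presence on a gene measures how much polymerase sits there, not how much mature tRNA the cell holds.

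RPC4 was followed by ChIP-seq in liver of C57BL/6 mice aged 12-14 weeks, which were male and fed at night, after partial hepatectomy (PH), the removal of most of the liver. The mice were kept with equal light and dark periods each day, and PH was always done at the start of the light period. The groups were livers at 0 h (TP0, before PH) and at 36, 48 and 60 h after PH (TP36, TP48 and TP60), with 2 libraries at each of the 4 time points, named replicates 1 and 2. Counted from PH, TP36 and TP60 fall in the dark period, so that time after PH and time of day cannot be told apart there. Each library came from the pooled liver of 3 mice, so that the spread between replicates is a spread between pools. These 8 libraries are part of a series of 29 samples. The scored loci are Pol III loci only, so that the tissue label could not be checked against liver markers.

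Each gene has 1 RPC4 score per library, which sets ChIP fragments against input fragments as a log2 ratio over the gene and 150 bases on each side. A score difference of 1 is a 2-fold difference in that ratio. A pseudocount is part of each score, so that folds at weakly occupied genes are understated. The authors' cutoffs for occupancy were 0.81 to 0.87 in the libraries of replicate 1 and 1.33 to 1.55 in those of replicate 2. Fragment counts are not part of the table analysed here, so that depth is unknown. At the 154 loci that passed the cutoff in no library, the library medians lay between -0.06 and 0.07.

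The sequences of 5 of the 10 genes are shown first, because the internal promoter lies in the exons. Below, capitals mark the intron, and the sequences are read 5′ to 3′ on the strand of the gene from the mouse genome build NCBIM37 (mm9). The first 3 stand next to each other on chromosome 13, n-Ty6 is the fourth in that row, and n-Ty8 lies further along chromosome 13.
n-Ty3: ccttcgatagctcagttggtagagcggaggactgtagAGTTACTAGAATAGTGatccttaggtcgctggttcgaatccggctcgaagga
n-Ty4: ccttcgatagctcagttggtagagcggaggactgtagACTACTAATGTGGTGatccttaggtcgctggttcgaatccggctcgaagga
n-Ty5: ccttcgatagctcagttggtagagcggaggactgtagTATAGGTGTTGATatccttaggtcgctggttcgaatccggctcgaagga
n-Ty6: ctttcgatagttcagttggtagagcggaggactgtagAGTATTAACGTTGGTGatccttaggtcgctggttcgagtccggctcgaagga
n-Ty8: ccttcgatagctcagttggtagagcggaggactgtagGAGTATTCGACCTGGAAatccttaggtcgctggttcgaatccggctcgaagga

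Each gene holds a 5′ exon of 37 bases and a 3′ exon of 36 bases, which give a tRNA body of 73 bases. The introns were 13 to 20 bases long and differed in all 10 genes. Of the 73 exon bases only 4 varied among the 10 genes. The exons of n-Ty3, n-Ty4, n-Ty5, n-Ty7 and n-Ty8, all on chromosome 13, were identical, and so were those of n-Ty2 and n-Ty10. Positions below are counted from 1 at the 5′ end of the joined exons, with the most common base of the 10 genes first.

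n-Ty6 differed most from the others, by 3 to 4 exon bases, where any other pair of genes differed by at most 2. It carried C2T in the first strand of the acceptor stem, C11T in the A box and A59G in the 3′ exon, each found in no other tRNA-Tyr gene. With C2T, 6 of its 7 acceptor stem pairs were Watson-Crick pairs and 1 was a G-T pair, against 7 Watson-Crick pairs in each of the other 9 genes. An A box motif TNGCNNAG was found on the gene strand in those 9 and in 243 of the 433 tRNA genes (56.1%). The letters of n-Ty6 match TNGTNNAG, which was found in 192 tRNA genes (44.3%) and in 151 of the 298 tRNA genes above a cutoff in at least 1 library (50.7%). The B box motif GGTTCGA, which does not overlap it, was found in all 10 and in 243 tRNA genes (56.1%). The motifs were searched over the whole gene, so that a match in another tRNA gene need not lie in its A box or B box. The shares therefore do not show how common the base of n-Ty6 is at its A box position. A run of 4 T began 7 to 14 bases after the end of each of the 10 genes, and 389 of the 433 tRNA genes (89.8%) had one within 100 bases.

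Of the 10 genes, 6 lie in the large tRNA gene region of chromosome 13, within 41520 bases. n-Ty3 (chr13:23517515-23517603, minus strand), n-Ty4 (chr13:23518374-23518461, plus strand), n-Ty5 (chr13:23518964-23519049, minus strand) and n-Ty6 (chr13:23520607-23520695, minus strand) follow each other with no other Pol III locus between them. n-Ty7 (chr13:23524859-23524946, minus strand) and n-Ty8 (chr13:23558945-23559034, plus strand) are interspersed with tRNA genes for other amino acids. n-Ty1 (chr3:19528355-19528447, plus strand) and n-Ty2 (chr3:19528782-19528870, plus strand) are 334 bases apart on chromosome 3, n-Ty9 (chr5:31190456-31190544, plus strand) is on chromosome 5 and n-Ty10 (chr14:51709164-51709253, plus strand) on chromosome 14.

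In the GENCODE vM1 annotation n-Ty1 lies in an intron of the protein-coding gene 1700064H15Rik on the opposite strand, n-Ty6 lies in an intron of the non-coding transcript C230035I16Rik on the same strand, and the other 8 overlap no annotated gene. The protein-coding start sites nearest to n-Ty3, n-Ty4, n-Ty5, n-Ty6 and n-Ty7 were those of Abt1, at 1868, 2639, 3314, 4960 and 9211 bases. The start site of Btn1a1 was 1175 bases from n-Ty8, that of Agbl5 611 bases from n-Ty9 and that of Ang 1588 bases from n-Ty10. n-Ty2 stands 105 bases from the start of 1700064H15Rik. The extended window of n-Ty2 overlaps that of the tRNA-Ala gene n-Ta14 by 176 bases, so that their scores share fragments. At the other 9 genes the extended windows overlapped no other locus. A fragment that overlaps a window only in part is counted in part, so that fragments between close windows can count at both. The gaps between genes were 323 bases from n-Ty1 to n-Tr3, 343 from n-Ty9 to n-Ta15 and 502 from n-Ty4 to n-Ty5. Only n-Ty6, n-Ty7 and n-Ty8 are labelled as more than 1.5 kb from another Pol III locus. The same label counts each of them as near a gene of RNA polymerase II. That distance is taken to the start or the poly A site of such a gene. The start-site distances above therefore do not show that n-Ty6 or n-Ty7 lies far from such genes. Fragments with several matches on the genome made up none of the score at 9 genes, and 0.028% to 0.094% of it at n-Ty2.

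Before PH the 4 genes on other chromosomes all scored above the 6 on chromosome 13. At TP0 the scores were 4.94 and 5.67 at n-Ty10, 4.90 and 5.39 at n-Ty2, 4.92 and 4.70 at n-Ty1, and 4.78 and 4.69 at n-Ty9, in replicates 1 and 2. On chromosome 13 they were 4.29 and 4.21 at n-Ty7, 3.84 and 4.53 at n-Ty8, 2.71 and 3.16 at n-Ty3, 2.43 and 2.32 at n-Ty4, 1.27 and 0.70 at n-Ty5, and 0.08 and 0.29 at n-Ty6. In this order the libraries of neighbouring genes overlapped from n-Ty10 down to n-Ty9 and between n-Ty7 and n-Ty8. They did not overlap at the other steps, the widest of which lay between n-Ty4 and n-Ty5 (mean scores 2.37 and 0.99) and between n-Ty8 and n-Ty3 (4.19 and 2.94). The 5 genes with identical exons thus had mean scores at TP0 between 0.99 and 4.25. In rank among the 433 tRNA genes the 10 ran from place 31 (n-Ty10) to place 304 (n-Ty6).

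n-Ty5 passed the cutoff in 1 of the 2 TP0 libraries and in all 6 libraries after PH. n-Ty6 passed it in neither TP0 library, in 1 of the 2 at TP36, in neither at TP48 and in both at TP60. The other 8 genes passed it in all 8 libraries. n-Ty6 therefore enters a comparison only through its later libraries.

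After PH the scores of n-Ty3, n-Ty4 and n-Ty5 were higher at every time point, and most so at n-Ty5. n-Ty5 had scores of 1.27 and 0.70 at TP0, 4.70 and 3.77 at TP36, 2.86 and 4.32 at TP48, and 4.57 and 5.10 at TP60. All 6 libraries after PH lay above both TP0 libraries, by at least 1.59. Its score was higher than at TP0 by 3.25 at TP36 (standard error (SE) 0.56, q = 0.00155), by 2.60 at TP48 (SE 0.56, q = 0.00332) and by 3.85 at TP60 (SE 0.56, q = 0.000298), where q is the false discovery rate from limma over the 646 loci. These are 9.51, 6.08 and 14.5 times the TP0 ratio. The intron-containing precursor of this gene is the tRNA-Tyr precursor that the study assayed by RT-qPCR, and those values were not used here. Pooled liver gives 1 value per gene and library, so that more polymerase per gene copy and a larger share of cells with polymerase on the gene cannot be told apart.

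n-Ty4 had scores of 2.43 and 2.32 at TP0, 5.47 and 4.33 at TP36, 4.36 and 5.31 at TP48, and 4.90 and 5.97 at TP60. The 6 libraries after PH were all above the 2 TP0 libraries. The differences from TP0 were 2.52 (SE 0.55, q = 0.00568), 2.46 (SE 0.55, q = 0.00387) and 3.06 (SE 0.55, q = 0.00105) in limma at TP36, TP48 and TP60.

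n-Ty3 had scores of 2.71 and 3.16 at TP0, 5.19 and 4.17 at TP36, 4.92 and 5.46 at TP48, and 4.64 and 6.13 at TP60, with no overlap between the libraries after PH and those before. Its differences were 1.74 (SE 0.56, q = 0.0314), 2.25 (SE 0.56, q = 0.00648) and 2.44 (SE 0.56, q = 0.00378). With each library centred on its median over all loci, the differences at TP36, TP48 and TP60 were 0.02, 0.54 and 0.51 at n-Ty3, of which that at TP60 passed the test. They were 0.80, 0.74 and 1.13 at n-Ty4 and 1.53, 0.89 and 1.92 at n-Ty5, all past it.

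n-Ty6, the neighbour of n-Ty5 with its own exon bases, stayed the lowest of the 10 in every library. It had scores of 0.08 and 0.29 at TP0, 1.86 and 0.63 at TP36, 0.56 and 1.22 at TP48, and 1.39 and 2.82 at TP60. The later libraries were all above the TP0 libraries, but those at TP36 and TP48 spread across the range of the cutoffs. The difference passed the test at TP60 (1.92, SE 0.58, q = 0.0126) and not at TP36 (1.06, SE 0.58, q = 0.116). At TP48 it was 0.70 (95% interval -0.57 to 1.97) with no library above its cutoff. With each library centred on its median over all loci, the difference at n-Ty6 was below 0 at the 3 time points, as was the median difference of all loci.

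n-Ty8 and n-Ty7 started higher. n-Ty8 had scores of 3.84 and 4.53 at TP0, 5.90 and 5.46 at TP36, 5.38 and 6.48 at TP48, and 5.59 and 6.84 at TP60. Its difference passed the test each time, at 1.50 (SE 0.55, q = 0.0482), 1.75 (SE 0.55, q = 0.0176) and 2.03 (SE 0.55, q = 0.00848), and it held place 1 of the 10 genes at TP36, against place 6 at TP0. With each library centred on its median over all loci, its difference at TP36 was -0.23, where the median difference of all loci was -1.04.

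n-Ty7 had scores of 4.29 and 4.21 at TP0, 5.83 and 4.68 at TP36, 5.20 and 6.02 at TP48, and 4.89 and 6.00 at TP60. All 6 later libraries were above both at TP0. Its difference passed the test at TP48 (1.36, SE 0.54, q = 0.0381), and not at TP36 (1.00, q = 0.115) or TP60 (1.19, q = 0.051). Centred on the median over all loci, it was below 0 at the 3 time points, as was the median difference of all loci.

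**Figure D1:**
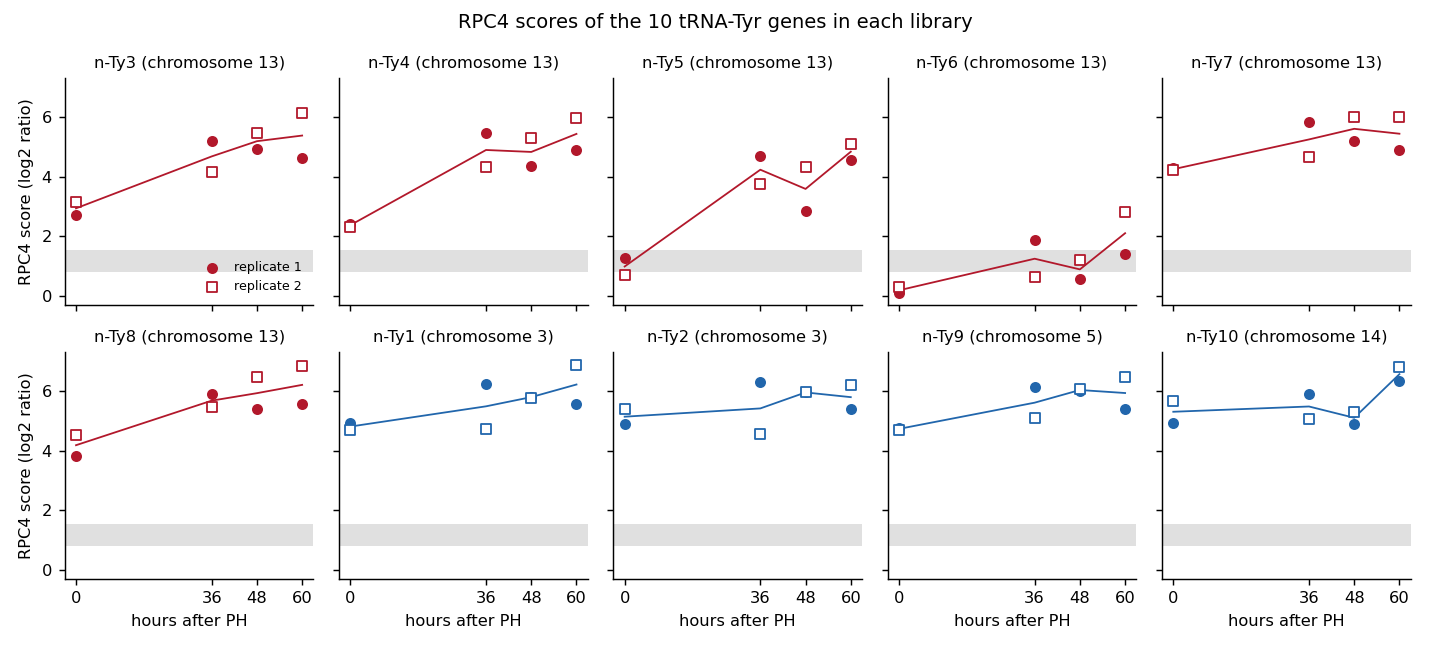
RPC4 scores (log2 ratio of ChIP over input, as deposited) of each tRNA-Tyr gene at 0, 36, 48 and 60 h after PH; filled circles are replicate 1, open squares replicate 2, lines join the means of the 2 libraries, red marks chromosome 13, blue other chromosomes, and the grey band spans the cutoffs (0.81 to 1.55). n-Ty5 and n-Ty6 start in or under the band at TP0, while n-Ty1, n-Ty2, n-Ty9 and n-Ty10 stand between 4.69 and 5.67 there.

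The 4 genes on other chromosomes stood near the top of the range before PH and their libraries spread more widely than they differed at TP36. n-Ty9 had scores of 4.78 and 4.69 at TP0, 6.14 and 5.08 at TP36, 6.02 and 6.06 at TP48, and 5.40 and 6.47 at TP60. It was the only one of these 4 whose 6 later libraries all exceeded both TP0 libraries. It passed the test at TP48 (1.31, SE 0.50, q = 0.034) and TP60 (1.20, SE 0.50, q = 0.0403), and at TP36 the difference was 0.88 (q = 0.127).

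n-Ty1 had scores of 4.92 and 4.70 at TP0, 6.25 and 4.73 at TP36, 5.82 and 5.78 at TP48, and 5.56 and 6.89 at TP60. Replicate 2 at TP36 lay among the TP0 values. The difference was 0.68 at TP36 (q = 0.234) and 0.99 at TP48 (q = 0.0858), and passed the test at TP60 (1.41, SE 0.58, q = 0.0395).

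n-Ty2, which lies 334 bases from n-Ty1 and shares its exons with n-Ty10, passed the test at no time point. It had scores of 4.90 and 5.39 at TP0, 6.30 and 4.55 at TP36, 5.96 and 5.96 at TP48, and 5.40 and 6.20 at TP60. Its differences were 0.28, 0.81 and 0.66, with 95% intervals of -0.98 to 1.54, -0.45 to 2.08 and -0.61 to 1.92.

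n-Ty10 had scores of 4.94 and 5.67 at TP0, 5.92 and 5.05 at TP36, 4.91 and 5.30 at TP48, and 6.34 and 6.80 at TP60. It was high in both libraries at TP60, and the libraries at TP36 and TP48 overlapped those at TP0. Its difference was 0.18 at TP36 (95% interval -0.86 to 1.21) and -0.20 at TP48 (-1.24 to 0.83), and it passed the test at TP60 (1.26, SE 0.47, q = 0.0292). At TP60 it held place 2 among the 433 tRNA genes, against place 31 at TP0. With each library centred on its median over all loci, the differences of n-Ty1, n-Ty2, n-Ty9 and n-Ty10 were below 0 at the 3 time points. The median difference of all loci was below 0 too, at -1.04, -0.83 and -0.98.

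The call required a q under 0.05 together with a score past the cutoff in 1 or more of the 4 libraries being compared. The 3 comparisons share the TP0 libraries. At TP36, 4 of the 10 tRNA-Tyr genes rose (n-Ty3, n-Ty4, n-Ty5 and n-Ty8) and 0 fell, beside 29.0% of the 487 loci above a cutoff that rose. At TP48, 6 of 10 rose, beside 51.5% of 480 loci. n-Ty6 is not among those 480, so that the count on the same base is 6 of 9. At TP60, 8 of 10 rose, beside 57.3% of 487 loci, the exceptions being n-Ty2 and n-Ty7. No locus fell past the threshold at any of the 3, and at an unadjusted p under 0.05 in limma 0 of the 10 tRNA-Tyr genes were lower. With Benjamini-Hochberg adjustment in limma the counts of tRNA-Tyr genes were 2, 4 and 5, beside 18.9%, 27.7% and 36.1% of loci. At TP48 and TP60 the q threshold called as many of the 646 loci as an unadjusted p under 0.05 did (38.2% and 43.3%), and at TP36 it called 21.8% of them against 30.3%.

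**Figure D2:**
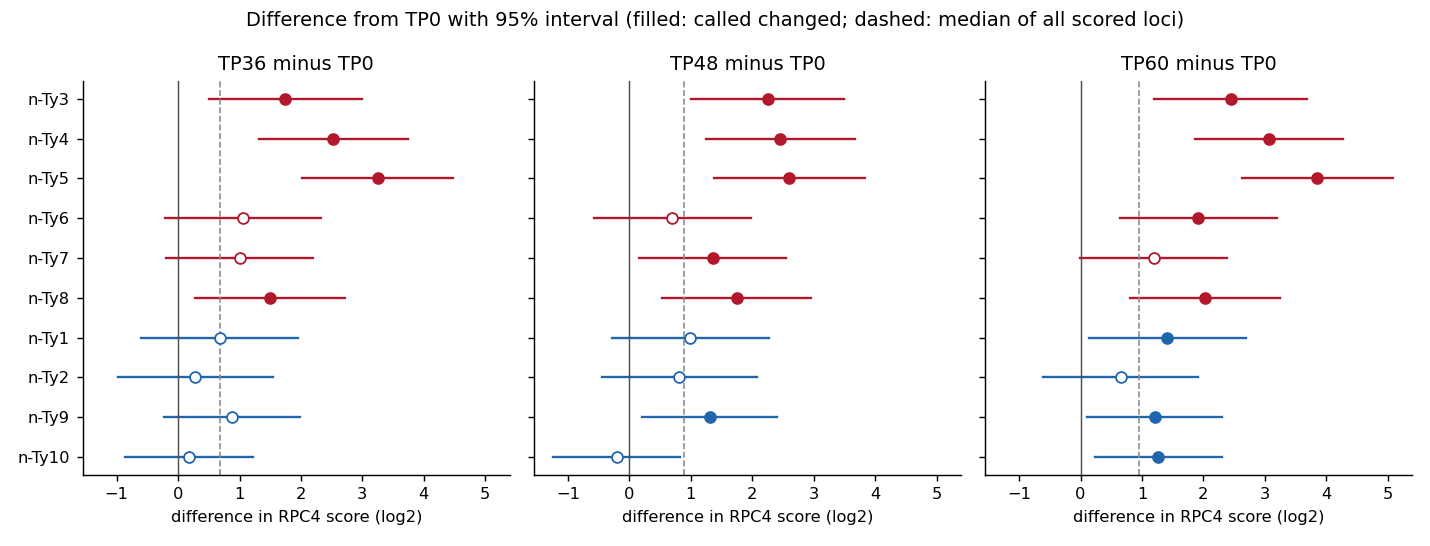
Difference of the mean RPC4 score (log2, as deposited) from TP0 at TP36, TP48 and TP60 for each tRNA-Tyr gene, with the 95% interval from limma; filled points were called changed, red is chromosome 13, blue other chromosomes, the solid line is 0 and the dashed line the median of all 646 loci (0.68, 0.88 and 0.95). The points of n-Ty3, n-Ty4, n-Ty5, n-Ty7, n-Ty8 and n-Ty9 lie right of the dashed line in all 3 panels. The median of the loci above a cutoff in the libraries compared is higher, at 0.96, 1.12 and 1.22. Against it n-Ty9 lies lower at TP36 and TP60, and n-Ty7 at TP60. Centring each library on its median over all loci leaves n-Ty4 and n-Ty5 called higher at every time point, brings n-Ty3 to 0.02 at TP36 and puts 7, 6 and 6 of the 10 genes below 0 at TP36, TP48 and TP60. The median of all loci is then -1.04, -0.83 and -0.98.

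Both libraries of a later time point lay above both TP0 libraries at 7 of the 10 genes at TP36, at 9 at TP48 and at all 10 at TP60. Over all 646 loci these shares were 55.9%, 74.6% and 69.0%, and over the 492 loci above a cutoff in any library 67.9%, 92.1% and 83.1%. All 6 later libraries exceeded both TP0 libraries at 7 of the 10 genes, the 6 on chromosome 13 and n-Ty9, beside 46.0% of the 646 loci. The 646 include loci never above a cutoff, and the share over the 492 loci was not taken for this count.

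The counts depended on single libraries. At TP36 the count was 4 with all libraries, 9 without TP36 replicate 2 and 1 without TP36 replicate 1 or without TP0 replicate 2. It was 2 when TP0 replicate 1 or either TP48 library was left out. At TP48 the count was 6 with all libraries, 0 without TP0 replicate 2 or TP48 replicate 2, 2 without TP0 replicate 1, and 4 without TP48 replicate 1. The TP60 count was 8 with all libraries, 3 without TP0 replicate 1 or TP60 replicate 2, 4 without TP0 replicate 2, and 5 without either of the TP48 libraries. n-Ty5 at TP36 and n-Ty3, n-Ty4 and n-Ty5 at TP60 were called in all 17 alternatives that were run, which include leaving out each of the 8 libraries.

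Replicates 1 and 2 differed across the family as a whole. At TP36 all 10 genes were higher in replicate 1, by a median of 1.10, and at TP60 all 10 were higher in replicate 2, by a median of 1.09. Over the 492 loci above a cutoff the medians of replicate 1 minus replicate 2 were 0.91 and -0.86. The part of these library-wide differences in the calls was tested only by leaving out libraries, by centring and by a replicate block. The block takes the same replicate difference at all time points, whereas its sign differed between TP36 and TP60.

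Centring each library on its median over all 646 loci removed 1.72, 1.72 and 1.93 from the differences at TP36, TP48 and TP60. It moved the calls among tRNA-Tyr genes to 2 higher and 6 lower at TP36, 2 higher and 3 lower at TP48, and 3 higher and 5 lower at TP60. Over all loci the same setting gave 63 higher and 325 lower at TP36, 78 higher and 252 lower at TP48, and 85 higher and 296 lower at TP60. Their median difference was then -1.04, -0.83 and -0.98. The tRNA-Tyr genes called higher were n-Ty4 and n-Ty5 at all 3 time points and n-Ty3 at TP60. Centring on the 154 loci below the cutoff gave 4, 6 and 9 genes, all higher.

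A difference taken inside a library does not move with a shift common to its loci. The mean score of the 6 genes on chromosome 13 minus that of the other 4 genes was -2.45 and -2.58 at TP0, -1.33 and -1.01 at TP36, -1.80 and -0.97 at TP48, and -1.35 and -1.11 at TP60, in replicates 1 and 2. All 6 libraries after PH lay above both TP0 libraries, and the mean was 1.25 higher after PH. It ranged from 1.19 to 1.36 when each library was left out in turn. The value was not tested.

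n-Ty3, n-Ty4 and n-Ty5 together made up 8.56% and 7.66% of the summed ChIP over input ratio of the 10 genes at TP0. They made up 20.8% and 21.6% at TP36, 16.5% and 21.5% at TP48, and 21.1% and 22.4% at TP60. These genes had the largest differences of the 10, so that their larger share after PH follows from that choice and adds no support. All tRNA-Tyr genes on chromosome 13 together made up 29.4% and 28.8% at TP0 and 44.2% and 51.2% at TP36. They made up 39.2% and 53.8% at TP48, and 42.8% and 47.3% at TP60. The shares are of ratios that hold a pseudocount, and are not shares of transcripts.

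The middle of the family drew together after PH. The interquartile range of the 10 scores was 2.37 and 2.17 at TP0 and between 0.70 and 1.22 in the 6 libraries after PH. At TP36 every pair of neighbours in the order of mean scores overlapped, apart from n-Ty5 and n-Ty6. At TP60 the same held, and n-Ty6 stayed 2.74 below n-Ty5. Replicate 1 minus replicate 2 had a median of -0.06 at TP0, 1.10 at TP36 and -1.09 at TP60. An overlap after PH can therefore come from this library-wide difference, and does not show that genes drew together. Inside both TP36 libraries n-Ty7, n-Ty4, n-Ty3 and n-Ty5 kept this order (5.83, 5.47, 5.19 and 4.70, then 4.68, 4.33, 4.17 and 3.77). The genes above n-Ty7 in mean score changed order between these libraries. At TP48 n-Ty5 stood apart from n-Ty4 too, with mean scores of 3.59 and 4.83, and the libraries of n-Ty9 lay above those of n-Ty2 by a mean of 0.08.

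**Figure D3:**
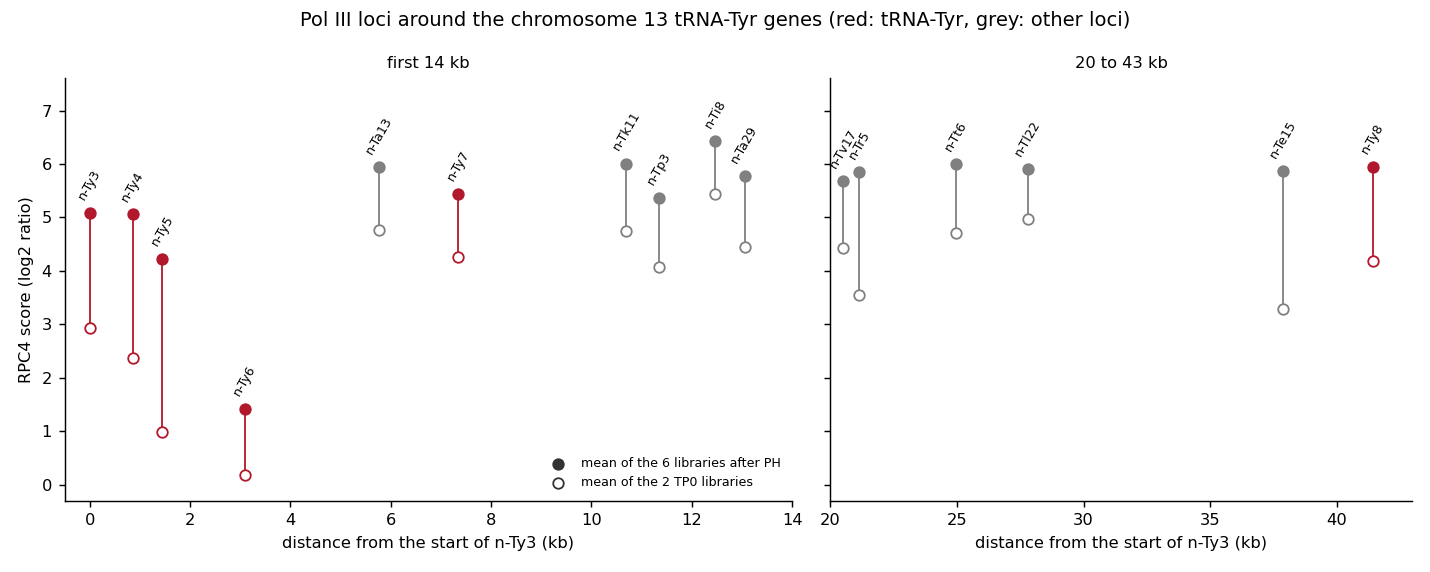
Mean RPC4 score (log2 ratio, as deposited) of each Pol III locus against its distance from the start of n-Ty3 in kb, for the first 14 kb and for 20 to 43 kb of the chromosome 13 region; filled points are the mean of the 6 libraries after PH, open points the mean of the 2 TP0 libraries, red is tRNA-Tyr and grey other loci. n-Ty3, n-Ty4 and n-Ty5 stand at 5.09, 5.06 and 4.22 after PH, against 2.94, 2.37 and 0.99 at TP0, while n-Ty7 stands at 5.43 after PH, against 4.25.

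The other tRNA genes of chromosome 13 had median differences as large as those of the 6 tRNA-Tyr genes there. Of these 6, 4 rose at TP36, 5 at TP48 and 5 at TP60, with median differences of 1.62, 2.00 and 2.23. Of the other 100 tRNA genes on chromosome 13, 55, 81 and 89 rose, with median differences of 1.74, 2.03 and 2.36. Among the 4 tRNA-Tyr genes elsewhere, 0, 1 and 3 rose, with median differences of 0.48, 0.90 and 1.23. Over all 646 loci the medians were 0.68, 0.88 and 0.95, and over the 423 tRNA genes for other amino acids 0.60, 0.96 and 0.97. Over the 10 tRNA-Tyr genes they were 1.03, 1.33 and 1.66. The lists of all loci and of other tRNA genes include loci never above a cutoff, which no tRNA-Tyr gene is. Over loci above a cutoff in the libraries compared, the medians were 0.960, 1.123 and 1.222 for all loci. For tRNA genes of other amino acids they were then 0.967, 1.301 and 1.359. The tRNA-Tyr medians stayed the same at TP36 and TP60, and that at TP48, without n-Ty6, was 1.357. On this base the tRNA-Tyr medians lay close to those of other tRNA genes at TP36 and TP48.

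**Figure D4:**
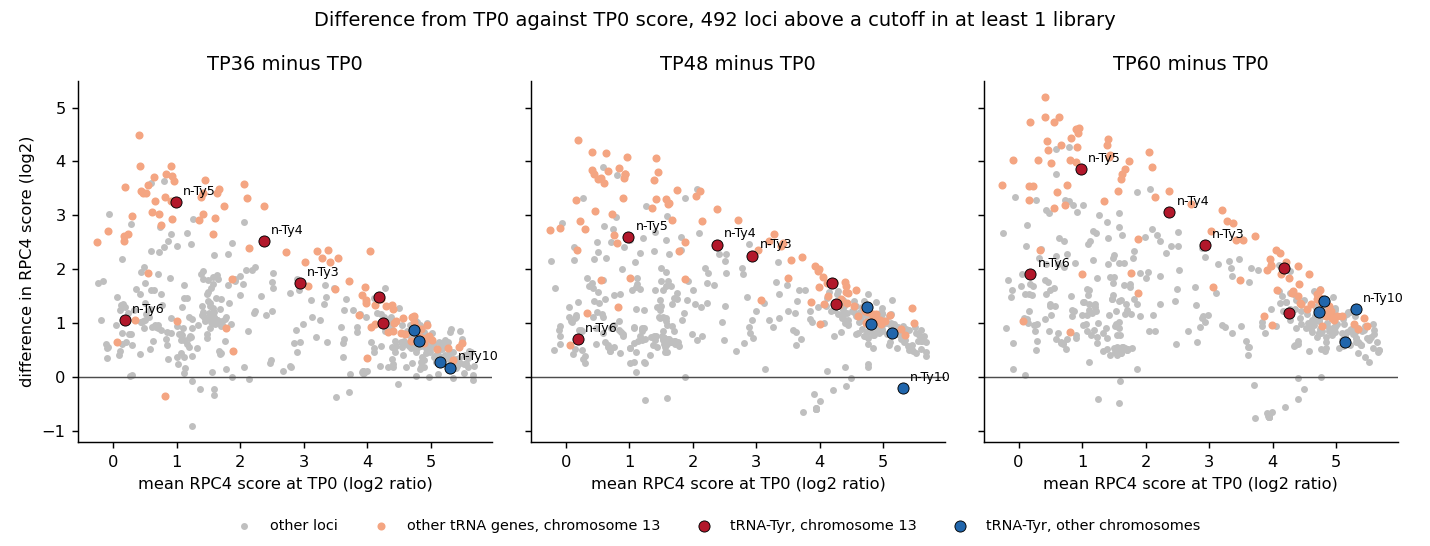
Difference in RPC4 score from TP0 (log2) at TP36, TP48 and TP60 against the mean score at TP0, for the 492 loci above a cutoff in at least 1 library; red and blue points are tRNA-Tyr genes on chromosome 13 and elsewhere, orange the other tRNA genes of chromosome 13 and grey all other loci. n-Ty5, n-Ty4 and n-Ty3 lie among the chromosome 13 tRNA genes in each panel, and n-Ty6, with the lowest TP0 score of the 10 tRNA-Tyr genes, has a lower difference than n-Ty5 in each; both axes hold the TP0 libraries, so that they are not independent.

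The nearest Pol III neighbours were occupied before PH and differed in the later scores. Within 5 kb of a tRNA-Tyr gene lie 9 other loci, all tRNA genes, of which 2 rose at TP36, 5 at TP48 and 7 at TP60. n-Tr3, a tRNA-Arg gene on the other side of n-Ty1, had scores of 3.57 and 3.76 at TP0, 5.68 and 4.54 at TP36, 5.24 and 5.35 at TP48, and 5.13 and 6.25 at TP60. It rose at the 3 time points, by 1.45, 1.62 and 2.02 (q = 0.0427, 0.0177 and 0.00608 in limma), whereas n-Ty1 passed the test at TP60 alone. The difference between these 2 genes was not tested. n-Te15, a tRNA-Glu gene 3469 bases from n-Ty8, rose by 2.21, 2.65 and 2.90 (q = 0.0185, 0.00488 and 0.00254).

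Beside n-Ty10, the tRNA-Thr gene n-Tt15 and the tRNA-Pro gene n-Tp15 passed the test at TP60 alone, as n-Ty10 did. n-Tt15 had scores of 4.90 and 4.62 at TP0, 6.06 and 4.62 at TP36, 4.84 and 5.17 at TP48, and 5.58 and 6.52 at TP60. Their differences from TP0 were 0.59 and 0.55 at TP36 and 0.25 and 0.11 at TP48, and at TP60 1.29 (q = 0.0404) and 1.60 (q = 0.0285) in limma.

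The loci whose 8 scores lay nearest to each gene, by root-mean-square difference over the 8 libraries, were mostly other tRNA genes. The tRNA-Glu gene n-Te17 on chromosome 7 was nearest both to n-Ty9 (0.10) and to n-Ty1 (0.20). The tRNA-Lys gene n-Tk22 on chromosome 13 was nearest to n-Ty5 (0.33) and the tRNA-Asp gene n-Td13 on chromosome 13 to n-Ty4 (0.27). For n-Ty10 the nearest was its neighbour n-Tt15, at 0.50 the least close of the 10, and for n-Ty6 it was a B2 SINE on chromosome 1 (0.35).

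Introns are also found in 14 tRNA genes for arginine, leucine, isoleucine, methionine and serine. Of these, 5 rose at TP36, 8 at TP48 and 8 at TP60, with median differences of 0.93, 1.17 and 1.02. The 4 tRNA-Ile genes had the highest isotype medians, at 1.72, 1.95 and 2.30, and the 4 tRNA-Arg genes had 0.89, 1.04 and 0.90. The highest single difference was that of the tRNA-Arg gene n-Tr23 on chromosome 13, at 4.50, 4.18 and 5.19, above the 3.25, 2.60 and 3.85 of n-Ty5. The tRNA-Met gene n-Tm18 and the tRNA-Ser gene n-Ts11 passed the cutoff in no library.

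**Figure D5:**
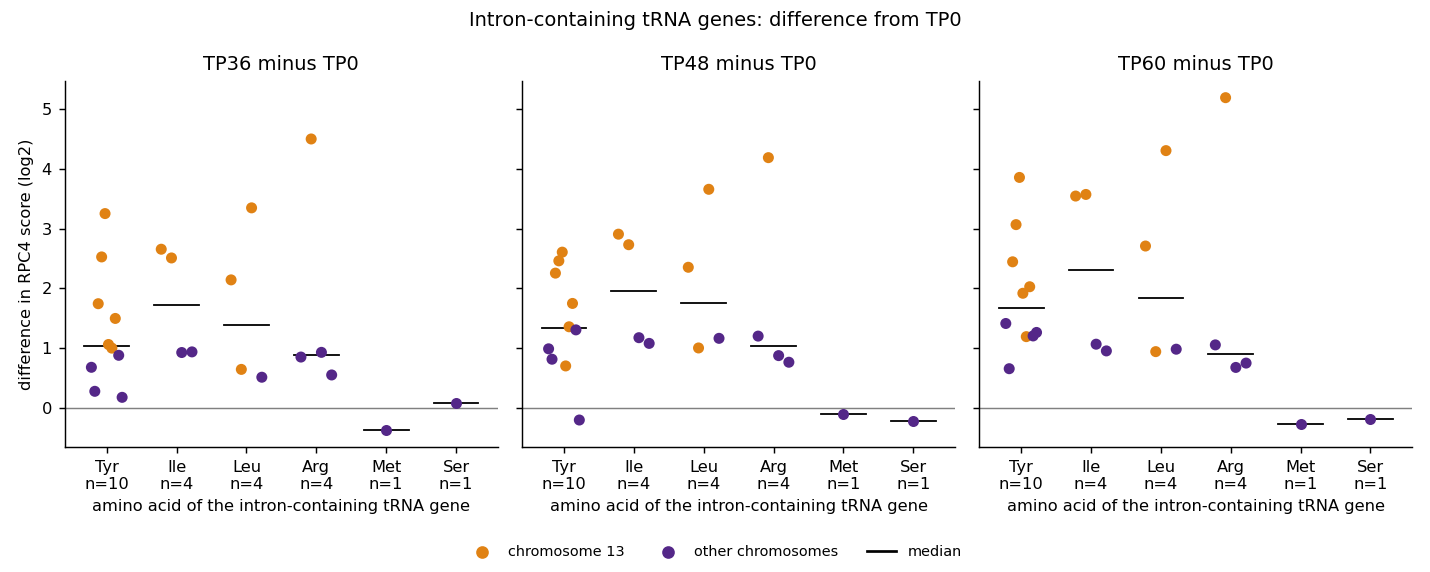
Difference in RPC4 score from TP0 (log2, as deposited) at TP36, TP48 and TP60 for the 24 intron-containing tRNA genes by amino acid, tRNA-Tyr at the left; each point is 1 gene, orange on chromosome 13 and purple elsewhere, and bars are medians. In each isotype with genes in both places the gene with the highest difference is orange. Not every orange gene exceeds the purple ones. At TP48 the tRNA-Leu gene n-Tl10 (1.00, orange) is below n-Tl12 (1.16, purple), and n-Ty6 (0.70, orange) below n-Ty9 (1.31, purple).

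The 5 genes with identical exons differ in intron and flanks. The 50 bases upstream are shown for n-Ty5 and n-Ty7, the lowest and the highest of these 5 at TP0, 5′ to 3′ on the strand of the gene.
n-Ty5 upstream: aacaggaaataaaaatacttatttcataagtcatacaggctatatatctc
n-Ty7 upstream: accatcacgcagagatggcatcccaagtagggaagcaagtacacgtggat
In this window the GC content was 26% at n-Ty5 and 52% at n-Ty7, and 40%, 32%, 30% and 44% at n-Ty3, n-Ty4, n-Ty6 and n-Ty8. It was 46%, 64%, 56% and 46% at n-Ty1, n-Ty2, n-Ty9 and n-Ty10, and the median of the 433 tRNA genes was 42%. The window was looked at after the scores had been seen. Across the 298 tRNA genes above a cutoff in at least 1 library, the correlation of upstream GC content with TP0 score was near 0 (Pearson r = -0.02, Spearman rho = 0.04), given as a description across genes of the same libraries. The 111 of these genes at or under 40% GC had a median TP0 score of 3.98 and a median TP36 difference of 1.13. The 187 genes over 40% had 4.36 and 0.85, and this split was not tested.

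The later time points did not differ from each other past the threshold at any tRNA-Tyr gene, by q or by Benjamini-Hochberg in limma, nor did any of the 646 loci (0%). The genes with an unadjusted p under 0.05 numbered 0 of 10 for TP48 against TP36, 1 for TP60 against TP36 and 2 for TP60 against TP48, beside 0.774%, 1.08% and 2.32% of the loci. n-Ty10 was 1.09 higher at TP60 than at TP36 and 1.46 higher than at TP48 (95% intervals 0.05 to 2.12 and 0.43 to 2.50). n-Ty5 was 1.25 higher at TP60 than at TP48 (95% interval 0.02 to 2.48).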

How the data were processed

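The authors mapped paired-end ChIP and input fragments to NCBI37/mm9 with ELAND, kept non-redundant fragments, weighted those with several matches, and scaled fragment totals to the median over samples. The deposited log2 scores are ratios of ChIP over input counts with a pseudocount, and the deposited percent columns give the share of a score from fragments with several matches. Scores were used without further scaling. Columns of per-sample values that could not be mapped numbered 0. Depth is unknown, so that precision rests on 2 replicates per time point.

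All 646 loci were fitted with limma 3.58.1 (R 4.3.3), as a linear model of time point with moderated variances. Storey q values used lambda from 0.05 to 0.95 and a spline with 3 degrees of freedom. Intervals are 95% intervals of that fit. The fit was tested on simulated scores with independent noise at each locus and library. They held no shift common to a library, so that the test does not cover the library-wide differences seen here. Sequences were read with Python 3.11.15 from NCBIM37, the build of the scores. Figures used matplotlib 3.10.9.

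The members, lists and tests were chosen with earlier results of these data known. All 10 genes are named, with intron-containing, chromosome 13 and neighbouring tRNA genes (within 5 kb) for comparison, and the loci with the nearest scores. The sequences of some genes are not reported here. Sequence features were chosen after the scores had been seen.

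The alternatives were Benjamini-Hochberg adjustment, a replicate block, a fit of the compared time points alone, 2 ways to centre the libraries, a filter on fragments with several matches, a filter on low scores, a variance trend, higher cutoffs, and leaving out each library.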

Additional observations from a re-analysis of the deposited data

How the results depend on the processing

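With Benjamini-Hochberg adjustment in place of q, 2 tRNA-Tyr genes rose at TP36, 4 at TP48 and 5 at TP60, and 92, 133 and 176 of all loci. Fitting only the time points compared gave 431 loci at TP48. Centring each library on its median over all loci gave 8 changed tRNA-Tyr genes and 388 loci at TP36, and turned the median difference of the 10 genes to -0.69, -0.38 and -0.27 at TP36, TP48 and TP60. The differences at these time points then became -1.04, -0.73 and -0.52 at n-Ty1, -1.44, -0.90 and -1.28 at n-Ty2, -0.84, -0.41 and -0.73 at n-Ty9, -0.66, -1.01 and -0.018 at n-Ty6, and -0.72, -0.36 and -0.74 at n-Ty7. n-Ty8 became -0.23 at TP36, and n-Ty10 -1.55 at TP36 and -0.67 at TP60. These signs follow from the shift removed, which left the median difference over all loci at -1.04, -0.83 and -0.98.

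Leaving out 1 library at a time gave 1 to 9 tRNA-Tyr genes at TP36, 0 to 7 at TP48 and 3 to 9 at TP60. Over all loci it gave 39 to 332, 47 to 323 and 102 to 387. The median difference of the 10 genes ranged from 0.43 to 1.63, 1.10 to 1.54 and 1.12 to 2.35. Without TP36 replicate 1 the TP36 differences turned negative at n-Ty1 (range over libraries left out -0.079 to 1.44), n-Ty2 (-0.60 to 1.15) and n-Ty10 (-0.26 to 0.61). Without TP0 replicate 1 that of n-Ty10 was -0.19. At TP48 that of n-Ty10 ranged from -0.57 to 0.16 and was positive without TP0 replicate 2. A time point left with 1 library was assumed to vary like the others.

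The labels do not say that a replicate number marks a shared batch. The correlation of same-numbered deviations over 492 loci was 0.53 for TP0 with TP36, 0.30 for TP48 with TP60, 0.10 for TP0 with TP48, 0.03 for TP0 with TP60, 0.02 for TP36 with TP48 and -0.28 for TP36 with TP60. With the replicate number as a block, 4, 5 and 6 tRNA-Tyr genes and 167, 197 and 240 loci were called at TP36, TP48 and TP60. Among the alternative values of single genes, 400 kept direction and side of the threshold, 69 kept the direction but lost the call, 18 gained it and 23 changed sign. Depth is unknown, and 2 libraries per time point set the precision.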
